A study of Homo sapiens with 24 samples.

Results

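The 9 miRNAs described here are the members of the miR-34 family and of the miR-192, miR-194 and miR-215 clusters, which are known as tumour-suppressive miRNAs. They were taken by name from the 2656 mature miRNAs of the count table, as hsa-miR-34a-5p, hsa-miR-34a-3p, hsa-miR-34b-5p, hsa-miR-34b-3p, hsa-miR-34c-5p, hsa-miR-34c-3p, hsa-miR-192-5p, hsa-miR-194-5p and hsa-miR-215-5p, and the species prefix is left out from here on. They were followed through 24 small RNA libraries of OV90, an epithelial ovarian cancer cell line. The libraries form 6 groups of 4 replicates, in which cells were grown adherent or as spheroids and carried an inducible shRNA that targets RELA (shRELA), RELB (shRELB) or, as the negative control, neither (shNeg). RELA and RELB encode the NF-κB subunits RelA and RelB. Every group, the controls included, received 1 µg/ml doxycycline for 72 h, which switches on the shRNA. The genotype field calls the shNeg cells wild type. Adherent cells were in serum-containing RPMI, and spheroids were in ultra-low attachment vessels in a defined medium with EGF and FGF, so that growth form and medium cannot be told apart. All groups come from 1 cell line, and nothing in the labels says whether replicates were separate cultures, so the p-values measure the spread between these libraries. Neither RELA nor RELB RNA is measured by small RNA libraries, so the knockdown was not checked here.

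The miR-34 miRNAs are among the best known tumour-suppressive miRNAs. They repress regulators of the cell cycle and of survival, such as CDK6, MYC and BCL2. The miR-192, miR-194 and miR-215 genes give miRNAs that can also slow the cell cycle and are best known for their high levels in the epithelium of the gut, the liver and the kidney. A mature miRNA recognises its targets mainly through its seed, bases 2 to 8, so miRNAs with the same seed share many predicted targets. Each hairpin precursor can give a 5p and a 3p arm, one of which is usually far more abundant.

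The sequences of the members that carry the results are given with the seed in capitals, 5′ to 3′, together with 2 miR-449 miRNAs that share their seeds. They were taken from the RefSeq annotation of GRCh38.p14, where 8 of the 9 members had an entry.
miR-34a-5p: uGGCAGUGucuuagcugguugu
miR-449a: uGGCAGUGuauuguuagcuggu
miR-34b-5p: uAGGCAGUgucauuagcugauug
miR-449c-5p: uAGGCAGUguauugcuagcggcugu
miR-192-5p: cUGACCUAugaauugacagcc
miR-215-5p: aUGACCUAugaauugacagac
miR-194-5p: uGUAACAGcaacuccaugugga
The miR-34a-5p seed is shared by miR-449a and miR-449b-5p, while miR-34b-5p shares its seed with miR-449c-5p. miR-192-5p and miR-215-5p have 1 seed in common and are identical at 19 of 21 bases. Counted from 1 at the 5′ end, with the miR-192-5p base first, they differ by C1A and C20A. miR-194-5p has a seed of its own.

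The members come from 4 places in the genome (GRCh38, GENCODE 44). MIR34A lies on chromosome 1 at 9151668 to 9151777, minus strand, within an exon of the long noncoding RNA gene MIR34AHG. MIR34B, at 111512938 to 111513021 on the plus strand of chromosome 11, and MIR34C, at 111513439 to 111513515, are 417 bases apart. MIR34C is within an exon of the noncoding gene MIR34BHG, an exon which covers only part of MIR34B, and both lie antisense to BTG4 outside its exons. MIR192, at 64891137 to 64891246 on the minus strand of chromosome 11, and MIR194-2, at 64891355 to 64891439, are 108 bases apart within an exon of the noncoding gene MIR194-2HG. MIR215, at 220117853 to 220117962 on the minus strand of chromosome 1, and MIR194-1, at 220118157 to 220118241, lie side by side, antisense to the protein-coding gene IARS2 and outside its exons. Mature miR-194-5p is the same from MIR194-1 and MIR194-2, so its count cannot be assigned to either locus. By contrast, miR-192-5p and miR-215-5p each have 1 locus in the annotation. They differ at only 2 bases, and how reads were assigned between them was not checked.

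Library totals were 3797175 to 8283549 counts in adherent cells and 959141 to 3580931 in spheroids. Values are CPM, the count of a miRNA relative to the total of its library, and scaled by TMM, a normalization that lines up the bulk of the miRNAs between libraries. Spheroid shNeg replicate 1 stood apart, with 432 miRNAs detected. Across the 24 libraries the 5 epithelial miR-200 markers summed to 1679 to 15884 CPM, with the highest sums in shRELB cells. These sums were mostly miR-200c-3p. The 3 muscle markers summed to at most 8.40 CPM. miR-122-5p, the defining miRNA of hepatocytes, was at 13733 to 29403 CPM in every library of this ovarian line. The 5 blood cell markers summed to 419 to 725 CPM in spheroid shNeg and to 21.1 to 216 CPM elsewhere. Most of this was miR-486-5p, with means of 509 CPM in spheroid shNeg and 34.5 in adherent shNeg. Each of the others averaged at most 4.60 CPM in any group. miR-451a went the other way, at 1.10 CPM in spheroid shNeg and 4.48 in adherent shNeg. The 2 endothelial markers, miR-126-3p and miR-126-5p, summed to 6481 to 7631 CPM in adherent shNeg, 2162 to 2478 CPM in adherent shRELB and 570 to 1732 CPM in spheroids.

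Of the 9 members, 6 had at least 1 CPM in at least 4 libraries and entered the tests. miR-34a-5p was the most abundant, miR-194-5p, miR-192-5p and miR-215-5p had counts in every library, and miR-34a-3p and miR-34c-5p were near the detection limit. miR-34b-5p, miR-34b-3p and miR-34c-3p did not pass the filter. A member was called changed at an edgeR quasi-likelihood false discovery rate (FDR) below 0.01 over the 905 miRNAs tested and a fold change above 2.

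miR-34a-5p was higher with either knockdown in spheroids and with the RELB knockdown in adherent cells. In adherent shNeg cells replicates 1 to 4 had 2313, 2016, 2247 and 1953 CPM. With shRELA they had 3898, 3080, 2954 and 4099 CPM. With shRELB they had 6556, 6885, 5361 and 5111 CPM. The 3 adherent groups did not overlap, and every shRELB library was above every shRELA library. Each library pools the RNA of many cells, so a change in every cell and a change in a part of the cells cannot be told apart.

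In spheroids the shNeg libraries had 526, 861, 1349 and 1280 CPM of miR-34a-5p. The shRELA spheroids had 3196, 2644, 2454 and 2337 CPM, and the shRELB spheroids had 3200.5, 2920, 3594 and 3041 CPM. Both knockdown groups were above all shNeg spheroids, and they overlapped each other. The highest group mean was therefore adherent shRELB at 5978 ± 873 CPM (SD, n = 4), followed by adherent shRELA at 3508 ± 575, spheroid shRELB at 3189 ± 294, spheroid shRELA at 2657 ± 381, adherent shNeg at 2132 ± 175 and spheroid shNeg at 1004 ± 385. Adherent shRELA overlapped both knockdown groups of spheroids, while the shNeg groups lay below all the others and apart from each other.

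**Figure D1:**
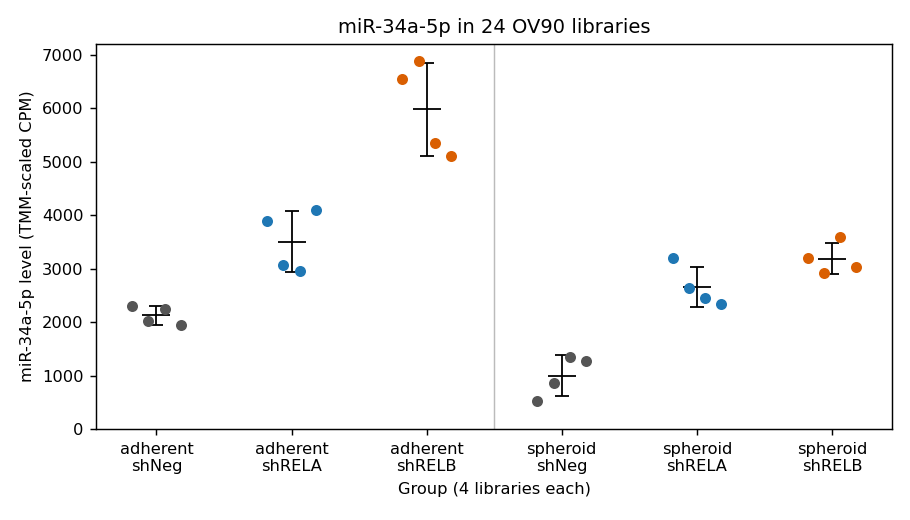
TMM-scaled CPM of miR-34a-5p on the vertical axis in each of 24 libraries, by group on the horizontal axis; points are libraries, and the black marks show the mean ± SD of 4. The shNeg libraries lie at or below 2313 CPM, and the shRELB libraries of adherent cells lie between 5111 and 6885 CPM.

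The log2 fold change of miR-34a-5p with shRELB in adherent cells was 1.49 ± 0.20 (SE, n = 4 against 4; edgeR FDR = 1.45e-06), a 2.80-fold increase. In spheroids it was 1.40 ± 0.21 with shRELA (edgeR FDR = 2.98e-06) and 1.67 ± 0.21 with shRELB (edgeR FDR = 1.11e-07). The study listed miR-34a-5p among the miRNAs it followed up from these same libraries, so its direction in spheroids is not independent evidence. With shRELA in adherent cells the log2 fold change was 0.72 ± 0.20 with FDR = 0.0190 by edgeR, which did not pass either threshold although the groups did not overlap. The 95% interval of that difference was 0.32 to 1.11 on the log2 scale. The direct comparison of adherent shRELA with adherent shRELB gave −0.77 ± 0.20 (edgeR FDR = 0.00520), under the fold threshold. In spheroids the same comparison gave −0.26 ± 0.20, with a 95% interval of −0.66 to 0.13.

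Whether the effect of a knockdown on miR-34a-5p differed between cultures was tested as an interaction. The RELA change was larger in spheroids by 0.69 ± 0.28 on the log2 scale (edgeR FDR = 0.106), and the RELB change by 0.18 ± 0.28 (edgeR FDR = 0.709). Neither passed the threshold, and the 95% intervals were 0.13 to 1.24 and −0.38 to 0.74.

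The opposite arm of the same hairpin, miR-34a-3p, had at most 26 counts in any library. Adherent shNeg replicates had 4, 6, 2 and 2 counts, adherent shRELA had 26, 5, 12 and 19, and adherent shRELB had 19, 8, 22 and 11. The summed level was 4.15-fold that of shNeg with shRELA, with a 95% counting interval of 2.30 to 8.03, and 4.31-fold with shRELB, with an interval of 2.38 to 8.35. These intervals cover counting error only, since they come from counts summed over the 4 libraries of a group and leave out the spread between replicates. Collapsing of molecular identifiers was not stated for the reads, so counting error itself may be understated. By the test over libraries, the FDR from edgeR was 0.120 with shRELA and 0.0732 with shRELB, and neither was called, although both were with only the groups compared in the fit.

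In spheroids all 4 shNeg libraries had 0 counts of miR-34a-3p, which allows up to 1.54 to 2.29 CPM per library (3 counts). The shRELA spheroids had 5, 2, 0 and 8 counts, and the shRELB spheroids had 0, 1, 2 and 0. The values of the knockdown spheroids, at most 3.04 CPM, were close to that limit, so no fold is given.

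The miR-34b and miR-34c hairpins gave few counts. miR-34c-5p had 2, 0, 1 and 2 counts in adherent shNeg, 3, 2, 1 and 5 in adherent shRELA, and 9, 7, 16 and 3 in adherent shRELB. The adherent shRELB libraries were all above those of shNeg, with a summed ratio of 7.04 (95% counting interval 2.75 to 23.0) and an edgeR FDR of 0.0479, which missed the threshold but passed with only the groups compared in the fit. Spheroid libraries had at most 4 counts of it. miR-34b-3p reached 9 counts in 1 adherent shRELB library and at most 4 elsewhere, miR-34b-5p at most 2 in any library, and miR-34c-3p at most 4. The summed count over the 4 adherent shRELB libraries was 11 for miR-34b-3p, 8 for miR-34c-3p and 3 for miR-34b-5p, against 1, 3 and 1 in adherent shNeg. Differences of these 3 arms were not tested at this depth.

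In adherent cells miR-192-5p, miR-194-5p and miR-215-5p were lower with the RELB knockdown, and none of the 3 was called with the RELA knockdown in either culture. miR-194-5p, which is encoded in both clusters, had 625, 676, 600 and 527 CPM in adherent shNeg. It had 628, 596, 318 and 810 CPM in adherent shRELA, and 145, 139, 127 and 126 in adherent shRELB. The shRELB libraries lay below all others in adherent culture, whereas the shRELA and shNeg libraries overlapped. Its log2 fold change with shRELB was −2.18 ± 0.29 (SE, n = 4 against 4; edgeR FDR = 1.22e-06), a 4.52-fold decrease.

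miR-192-5p, from the chromosome 11 cluster, had 385, 344, 354 and 343 CPM in adherent shNeg, 374, 317, 226 and 456 in adherent shRELA, and 114, 88.2, 138 and 102 in adherent shRELB. Only the shRELB libraries were separate from shNeg. The log2 fold change with shRELB was −1.69 ± 0.23 (edgeR FDR = 1.45e-06), a 3.22-fold decrease.

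miR-215-5p, from the chromosome 1 cluster, had 64.0, 66.1, 77.5 and 67.6 CPM in adherent shNeg and 10.9, 9.82, 28.6 and 14.1 in adherent shRELB. Its log2 fold change was −2.11 ± 0.36 (edgeR FDR = 4.85e-05), a 4.31-fold decrease. With shRELA it had 149, 114, 63.6 and 184 CPM, so that 3 libraries were above all shNeg libraries and replicate 3 was below them. The log2 fold change with shRELA was 0.89 ± 0.34, at an edgeR FDR of 0.124. Replicate 3 of adherent shRELA was also the lowest of its group for miR-192-5p and miR-194-5p.

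**Figure D2:**
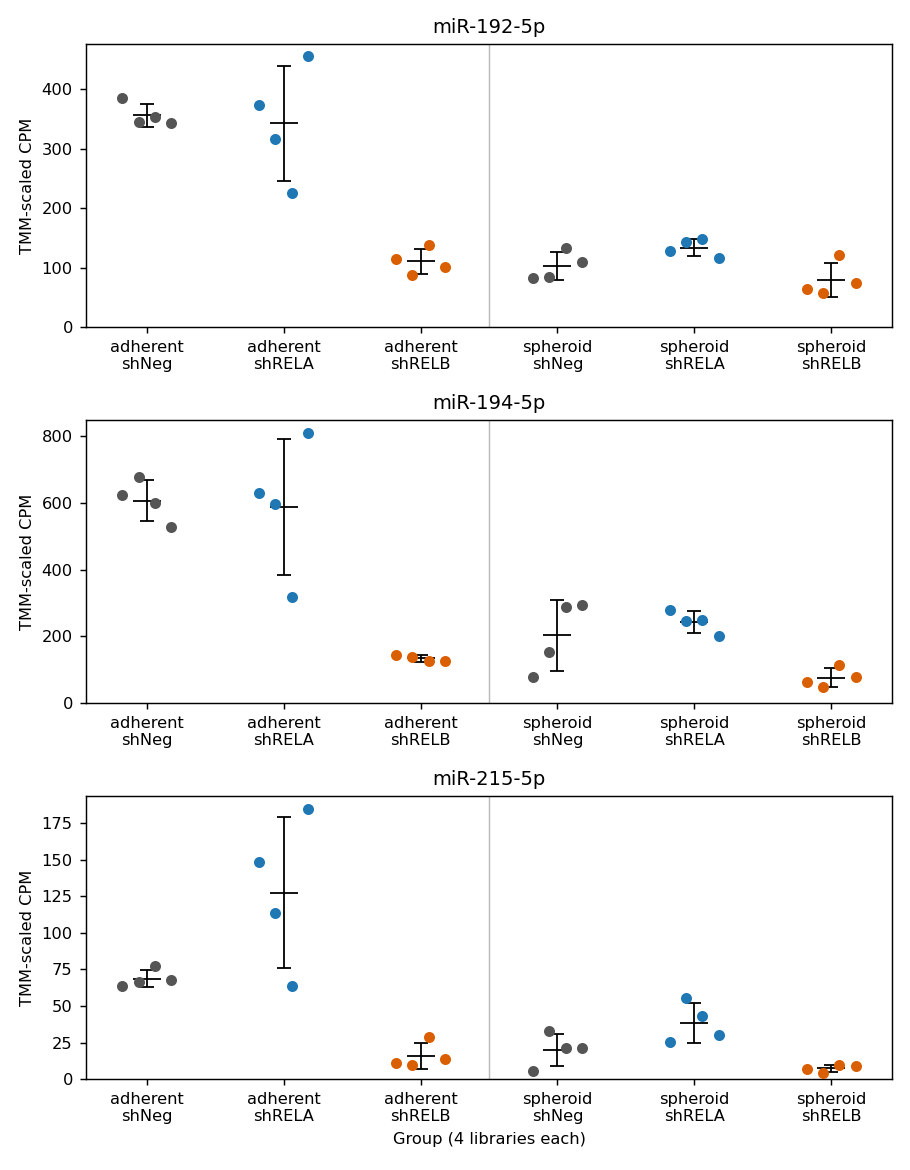
TMM-scaled CPM (vertical axes, each starting at 0) of miR-192-5p, miR-194-5p and miR-215-5p by group, with 1 point per library and the mean ± SD of 4. In adherent culture the shRELB points lie below all shNeg points for each miRNA, and the spheroid values lie below those of adherent shNeg cells.

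In spheroids the pattern was of the same direction with shRELB but smaller for miR-192-5p. miR-194-5p had 77.7, 153, 287 and 295 CPM in shNeg spheroids, 279, 246, 249 and 201 with shRELA and 64.3, 49.9, 114 and 77.4 with shRELB. The shNeg spheroids spread widely, replicate 1 having the lowest value, and that library fell within the range of shRELB. The log2 fold change of miR-194-5p with shRELB was −1.41 ± 0.30 (edgeR FDR = 4.03e-04), called lower, and with shRELA 0.26 ± 0.29. In a fit of the spheroid shNeg and shRELB libraries alone, the estimate for shRELB was −1.44, past the fold threshold only.

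miR-215-5p had 5.87, 32.8, 21.0 and 21.1 CPM in shNeg spheroids, 25.3, 55.7, 43.4 and 30.4 with shRELA, and 6.85, 3.99, 9.77 and 8.89 with shRELB. Replicate 1 of shNeg again lay with the shRELB libraries. The log2 fold change with shRELB was −1.46 ± 0.42 (edgeR FDR = 0.00990), just past the threshold. This call was lost when replicate 2, 3 or 4 of spheroid shNeg or replicate 1, 2 or 4 of spheroid shRELB was left out. The log2 fold changes were then −1.14 to −1.75. The call was also lost under limma, with the replicate number as a block, and with only the groups compared in the fit. With shRELA the log2 fold change was 0.93 ± 0.39 at an edgeR FDR of 0.0704.

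miR-192-5p had 82.9, 84.8, 133 and 110 CPM in shNeg spheroids, 128, 142, 149 and 117 with shRELA, and 63.3, 56.5, 121 and 74.9 with shRELB. All 3 groups overlapped in part. Neither the log2 fold change with shRELB, −0.39 ± 0.24, nor that with shRELA, 0.38 ± 0.23, was called. The RELB effect on miR-192-5p differed between cultures by 1.30 ± 0.33 on the log2 scale (edgeR FDR = 0.00496), the decrease being larger in adherent cells. That call was lost without replicate 1 of adherent shNeg, replicate 2 or 4 of adherent shRELB, replicate 2 of spheroid shNeg or replicate 3 of spheroid shRELB, with differences of 1.05 to 1.27. The same difference was 0.76 ± 0.41 for miR-194-5p and 0.65 ± 0.55 for miR-215-5p, neither of which was called.

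Counted over the 6 members tested, the RELA knockdown called 0 in adherent cells, where 3.76% of all miRNAs tested were called. There, 3 members (miR-34a-5p, miR-34a-3p and miR-215-5p) had an unadjusted p under 0.05, and DESeq2 and limma also called 0. The share of all miRNAs under that unadjusted p is not given, here or below. The RELB knockdown in adherent cells called 4 members, 1 higher and 3 lower, against 7.07% of all tested (3.54% higher and 3.54% lower). The median log2 fold change of the tested members there was −0.10, and that of all tested miRNAs 0.04. In spheroids shRELA called 1 member higher, against 15.1% of all tested (7.51% higher), with medians of 0.93 for members and 0.09 for all. In spheroids shRELB called 3 members, 1 higher and 2 lower, against 13.4% of all tested (7.29% higher and 6.08% lower). The medians there were 0.64 for members and 0.16 for all. These member medians include miR-34a-3p and miR-34c-5p, which were near the detection limit. With shRELB, in both cultures, miR-34a-5p was above 0 and miR-192-5p, miR-194-5p and miR-215-5p were below 0. The member median falls between them there and shows no shared direction.

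**Figure D3:**
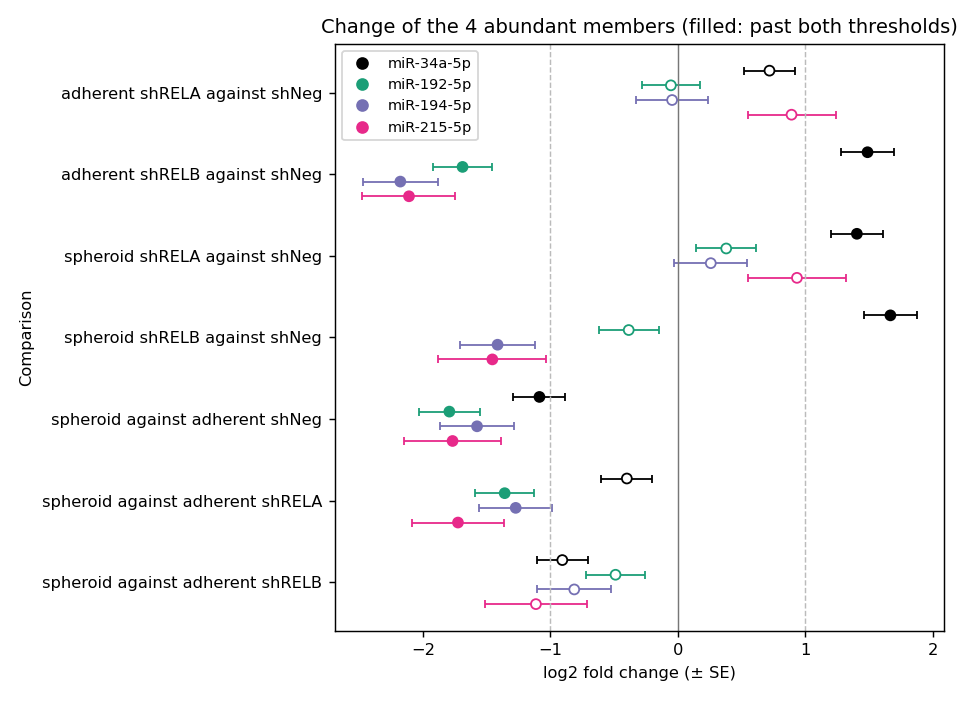
Log2 fold change ± SE (horizontal axis) of miR-34a-5p, miR-192-5p, miR-194-5p and miR-215-5p in 7 comparisons (vertical axis), filled where FDR was below 0.01 and the fold change above 2, which the dashed lines mark. The 2 shRELB comparisons have miR-34a-5p at 1.49 and 1.67 and the other members below 0.

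Set directly against each other, the knockdowns differed in miR-192-5p, miR-194-5p and miR-215-5p. Adherent shRELA cells had more miR-215-5p than adherent shRELB cells by 3.0 ± 0.37 on the log2 scale (edgeR FDR = 1.42e-07), or 8.0-fold. The difference was 2.13 ± 0.29 for miR-194-5p (edgeR FDR = 9.16e-07) and 1.63 ± 0.23 for miR-192-5p (edgeR FDR = 1.52e-06). The libraries did not overlap for any of the 3, but how often this held among all miRNAs was not counted. These 3 were the members called in adherent cells, where 10.9% of all miRNAs were (4.31% higher with shRELA). In spheroids 2 members were called, miR-215-5p with 2.39 ± 0.41 and miR-194-5p with 1.67 ± 0.30, against 6.63% of all tested (2.76% higher with shRELA). miR-192-5p, at 0.76 ± 0.23 in spheroids (edgeR FDR = 0.0211), was not.

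The interaction tests called 0 of the 6 members for RELA, where 7.62% of all miRNAs were called, and 1, miR-192-5p, for RELB, where 8.51% were (4.64% in its direction). For RELA, 1 member (miR-34a-5p) had an unadjusted p under 0.05, and DESeq2 and limma called 0.

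Of the 6 members tested, 4 were called lower in shNeg spheroids than in adherent shNeg cells. Over all miRNAs tested, 20.9% were called lower and 42.2% in either direction. The 4 were the members with counts in every library, and miR-34a-3p and miR-34c-5p were not called. The log2 fold changes were −1.79 ± 0.24 for miR-192-5p (edgeR FDR = 7.12e-08), −1.77 ± 0.38 for miR-215-5p (edgeR FDR = 1.75e-04), −1.58 ± 0.29 for miR-194-5p (edgeR FDR = 2.20e-05) and −1.09 ± 0.20 for miR-34a-5p (edgeR FDR = 2.76e-05). The groups did not overlap for any of the 4, but how often this held among all miRNAs tested was not counted. For miR-34a-5p the call depended on scaling: the log2 fold change was −0.97 with median-ratio size factors and −0.63 with library totals, both short of the fold threshold. It was −0.97 by DESeq2, −0.73 when only miRNAs that averaged 10 CPM were kept, and −0.87 without spheroid shNeg replicate 1. Library totals moved the median of all miRNAs in this comparison by 0.43 on the log2 scale.

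With shRELA, 3 members were lower in spheroids, against 32.6% of miRNAs called in either direction and 15.8% called lower. They were miR-215-5p at −1.73 ± 0.36, miR-192-5p at −1.36 ± 0.23 and miR-194-5p at −1.27 ± 0.29, whereas miR-34a-5p was at −0.40 ± 0.20. With shRELB, 1 member was called lower in spheroids, against 25% of all in either direction and 11.4% lower. It was miR-34a-3p, with 3 counts in spheroids against 60 in adherent cells, a ratio of 0.0999 with a 95% counting interval of 0.0200 to 0.306. This call was lost on leaving out replicate 1, 3 or 4 of adherent shRELB or replicate 1, 2 or 4 of spheroid shRELB, with log2 fold changes from −2.66 to −3.20, and with the replicate number as a block. miR-34a-5p fell short of the fold threshold there, at −0.91 ± 0.20.

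Ratios within a library do not depend on how libraries are scaled. The ratio of miR-34a-5p to miR-30e-5p, the reference miRNA of the study's PCR assays, differed from shNeg on the log2 scale by 1.60 with shRELB in adherent cells, 1.27 with shRELA in spheroids and 1.49 with shRELB in spheroids. Each of these had p = 0.0286 in a two-sided exact permutation test of 4 against 4 libraries, the smallest p this design allows, and an adjusted p of 0.0952 in the exact tests over 20 comparisons. With shRELA in adherent cells the difference was 0.31 (exact permutation p = 0.143). Between shNeg spheroids and adherent shNeg cells the ratio was higher in spheroids by 0.54 (exact permutation p = 0.0571), the reverse of the direction in scaled CPM. miR-30e-5p itself had a log2 fold change of −1.69 ± 0.20 in that comparison.

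The ratio of miR-192-5p to miR-30e-5p differed by −1.58 with shRELB in adherent cells and by −0.50 with shRELA in adherent cells (both exact permutation p = 0.0286). With shRELA in adherent cells miR-30e-5p itself had a log2 fold change of 0.47 ± 0.20 (edgeR FDR = 0.166). In spheroids the miR-192-5p ratio differed by −0.68 with shRELB (exact permutation p = 0.0857) and by 0.19 with shRELA (exact permutation p = 0.314). Between shNeg spheroids and adherent shNeg cells it differed by −0.10 (exact permutation p = 0.371), so the decrease of miR-192-5p in spheroids was of the size of that of miR-30e-5p. The near-identical pair miR-192-5p and miR-215-5p shifted against each other with shRELA in adherent cells, where the log2 ratio fell from 2.37 ± 0.16 to 1.49 ± 0.24 (SD, n = 4 each; exact permutation p = 0.0286, adjusted p = 0.0952). With shRELB the ratio moved the other way by 0.54 in adherent cells (exact permutation p = 0.114) and by 0.87 in spheroids (exact permutation p = 0.143). The ratio of miR-192-5p to miR-194-5p differed by 0.47 with shRELB in adherent cells (exact permutation p = 0.0571) and by 0.02 with shRELA (exact permutation p = 0.886).

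**Figure D4:**
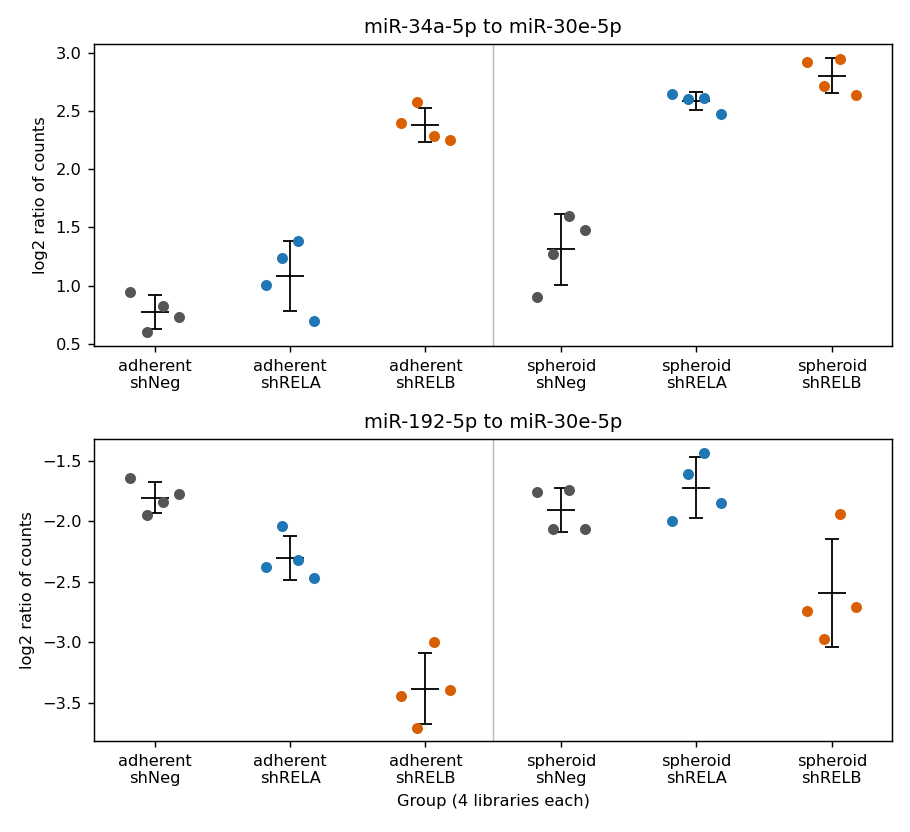
Log2 ratio of counts within each library (vertical axes) of miR-34a-5p and of miR-192-5p to miR-30e-5p, by group, with 1 point per library and the mean ± SD of 4. The miR-34a-5p ratio lies above that of the shNeg group of its culture in all shRELB libraries, and the miR-192-5p ratio is lowest in adherent shRELB.

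The other arms of the same hairpins moved in part with the members. Of the 3 arms tested, 2 were called lower with shRELB in adherent cells, as were 3.54% of all miRNAs tested. miR-215-3p fell from 15.8, 15.7, 15.1 and 11.3 CPM to 2.18, 0.702, 3.08 and 0.806 CPM, a log2 fold change of −3.03 ± 0.48 (edgeR FDR = 1.27e-05). miR-192-3p fell from 17.9, 13.1, 16.5 and 17.0 CPM to 4.52, 7.72, 3.08 and 2.62 CPM, a log2 fold change of −1.86 ± 0.44 (edgeR FDR = 0.00257). The call of miR-192-3p was lost without replicate 1, 3 or 4 of adherent shRELB, at −1.67 to −1.86, and under limma. In spheroids miR-192-3p was lower with shRELB by a log2 fold change of −2.26 ± 0.56 (edgeR FDR = 0.00245), although its shNeg libraries ranged from 1.53 to 16.1 CPM and overlapped those of shRELB. This call was lost with only the groups compared in the fit, at −2.20, and leaving out 1 library moved the value to between −1.84, without replicate 1 of shNeg, and −3.25, without replicate 2 of shRELB. With shRELA, 0 of the 3 arms were called in adherent cells by edgeR, DESeq2 or limma, and 0 had an unadjusted p under 0.05. In spheroids with shRELA, edgeR and DESeq2 called 0 and limma called 1, and 1 arm, miR-215-3p, had an unadjusted p under 0.05 in edgeR, with 4 counts over the shNeg libraries and 34 over those of shRELA.

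miR-194-3p, which comes from MIR194-2 alone in the RefSeq annotation, went the other way from miR-194-5p between cultures. It had 11.4, 7.73, 8.25 and 8.25 CPM in adherent shNeg and 19.8, 48.1, 42.6 and 46.3 in spheroid shNeg. The groups did not overlap, and the log2 fold change was 2.13 ± 0.28 (edgeR FDR = 6.72e-08). It was also called higher in spheroids with shRELA, at 2.28 ± 0.28, and with shRELB, at 1.96 ± 0.28. Of the 905 miRNAs tested, 193 were called higher in spheroids with shNeg, 152 with shRELA and 123 with shRELB. The 3p arm made up 1.13 to 1.8% of the miR-194 counts in adherent shNeg libraries and 12.9 to 24% in those of spheroids. With shRELB it made up 3.41 to 5.16% in adherent cells and 18.3 to 33.9% in spheroids. With shRELA the shares were 1.01 to 2.17% and 12.8 to 14.8%. These shares do not depend on library scaling. Since the 5p count can come from MIR194-1 as well as MIR194-2, they are not the arm shares of 1 hairpin. The miR-215-3p share of the miR-215 counts lay the other way, at 14.4 to 19.8% in adherent shNeg and 0 to 8.89% in spheroid shNeg, where it had 4 counts in all against 304 in adherent cells. miR-215-3p was called lower in spheroids with shNeg, at −4.42 ± 0.68 (edgeR FDR = 1.28e-06), and still called without each library. Without spheroid shNeg replicate 3 the other spheroid shNeg libraries were all at 0 counts of it, and the fitted value, −8.80, then depends on the prior count and is no bound. With shRELA it was called lower in spheroids at −2.36 ± 0.48. The log2 fold changes of miR-194-3p with shRELB, −0.47 ± 0.28 in adherent cells and −0.64 ± 0.27 in spheroids, were not called.

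**Figure D5:**
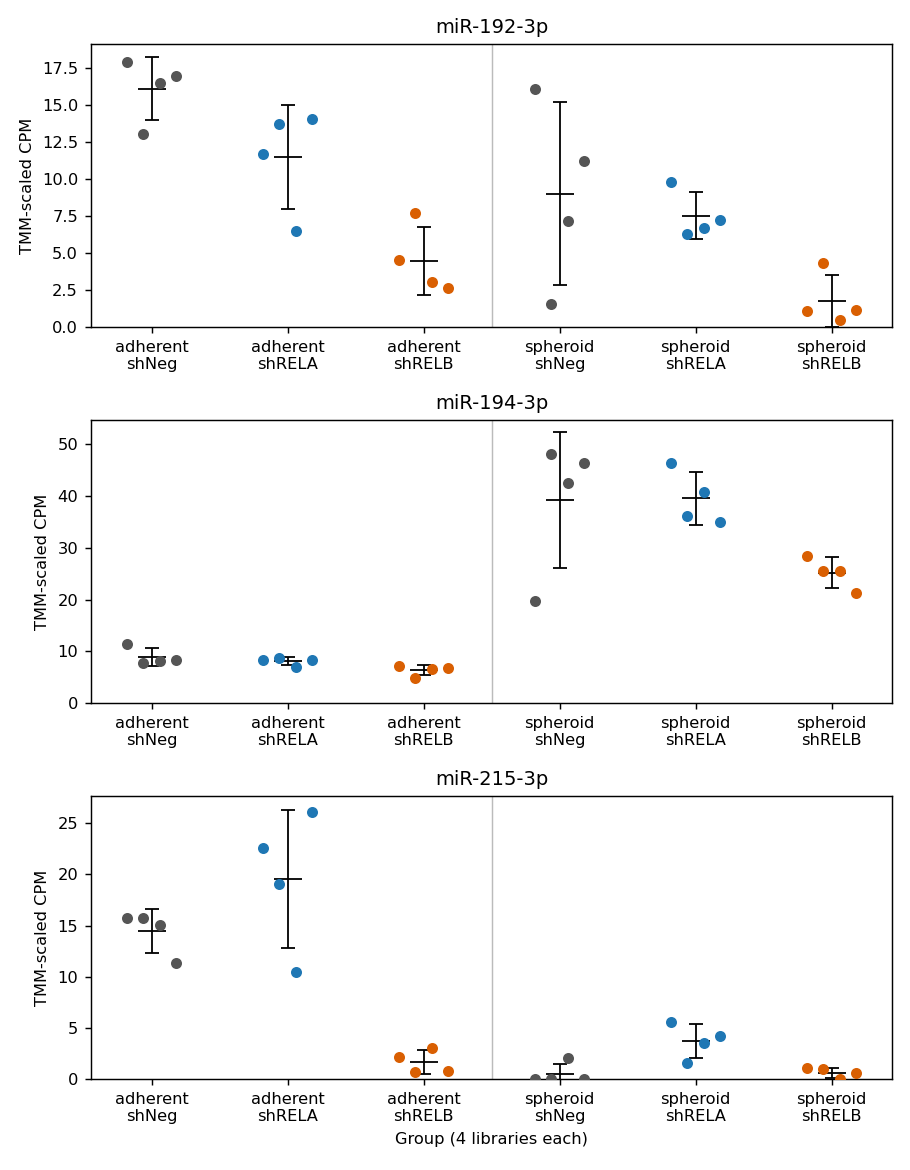
TMM-scaled CPM (vertical axes) of miR-192-3p, miR-194-3p and miR-215-3p by group, with 1 point per library and the mean ± SD of 4 (error bars are drawn only above 0). miR-194-3p lies at 11.4 CPM or below in all adherent libraries and at 19.8 CPM or above in all spheroid libraries.

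The miR-449 miRNAs, which share the miR-34 seeds, were low. miR-449c-5p had 0, 18.3, 13.3 and 7.02 CPM in shNeg spheroids and 37.0, 35.7, 27.3 and 34.2 with shRELA, and these groups did not overlap. Its log2 fold change was 1.78 ± 0.48 (edgeR FDR = 0.00466), a call lost without replicate 4 of spheroid shNeg or replicate 1, 2 or 4 of spheroid shRELA, at 1.65 to 1.77, with either other scaling, and with only the groups compared in the fit. Between cultures miR-449c-5p was called higher in spheroids with shRELA, at 3.71 ± 0.50 (edgeR FDR = 2.14e-07), a call kept without each library. It was also called higher with shNeg, at 1.89 ± 0.52, lost without replicate 4 of adherent shNeg or replicate 2 or 3 of spheroid shNeg (lowest 1.44), and with shRELB, at 1.88 ± 0.48, lost without replicate 1 or 4 of adherent shRELB or replicate 2 of spheroid shRELB (lowest 1.44). In spheroids miR-449a was at 1.77 ± 0.53 with shRELA against shNeg (edgeR FDR = 0.0118), not called by edgeR. Its shRELA libraries, at 4.73 to 9.40 CPM, were above the shNeg range of 0 to 3.08. DESeq2 and limma each called 2 miR-449 miRNAs there. Between cultures miR-449a was at −1.40 ± 0.52 with shNeg and 1.24 ± 0.44 with shRELA, neither of them called by edgeR. The RELA change of miR-449a was called different between cultures, by 2.64 (edgeR FDR = 0.00665). That call was lost under 5 of 10 alternatives and in 8 of 16 fits without 1 library. With shRELB against shNeg, 0 of the 2 miR-449 miRNAs tested were called in either culture by edgeR, DESeq2 or limma. Of these, 0 had an unadjusted p under 0.05. miR-449b-5p, with at most 8 counts in any library, did not pass the filter.

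Across the 24 libraries, the log2(CPM + 1) of miR-194-5p went with that of miR-192-5p (Pearson's r = 0.943) and miR-215-5p (r = 0.924) more closely than with any other of 334 miRNAs that averaged 10 CPM or more, and next with miR-126-5p, an endothelial miRNA (r = 0.920). The miRNAs most like miR-34a-5p were miR-155-5p (r = 0.864), an immune-cell miRNA known to be induced by NF-κB, miR-27a-5p (r = 0.862) and miR-302d-3p (r = 0.861). In these libraries miR-155-5p was higher with the knockdowns of RELA and RELB. Its adherent means were 8.77 CPM with shNeg, 44.5 with shRELA and 75.4 with shRELB. In spheroids they were 4.84, 49.9 and 72.1 CPM. The r of miR-34a-5p with miR-192-5p, miR-194-5p and miR-215-5p was 0.08, −0.02 and 0.03. These values describe libraries that share groups, depth and scaling, and carry no test. The summed level of miR-126-3p and miR-126-5p was lower with shRELB in adherent cells and lower in spheroids, as the miR-192, miR-194 and miR-215 members were, and its part in those results was not tested.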

How the data were processed

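Small RNA was sequenced from 24 OV90 libraries, in 6 groups taken from the sample labels. Per the labels, RNA was extracted with an RNeasy kit and libraries were made with a QIAseq miRNA kit, whose molecular identifiers were not stated to be collapsed. The submitters' notes name cutadapt, edgeR and GRCh38, and the study's methods name miRDeep2 and miRBase. The deposited table holds estimated counts per mature miRNA made by the authors, not scaled for library size although its name speaks of CPM. Values that were not whole (3.04% of non-zero values, on 84 miRNAs) were rounded. miR-194-5p was a multiple of 0.5 in all 24 libraries, as counts divided between 2 hairpins would be. Whole counts would pass this check too, so it does not show how the reads were assigned.

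The main test was edgeR's quasi-likelihood test (edgeR 4.0.16, R 4.3.3) with TMM and Benjamini-Hochberg adjustment, on the 905 miRNAs that reached 1 CPM in 4 or more libraries, with all 24 libraries and 6 group means in 1 fit. Standard errors were derived from each log2 fold change and its F statistic, and 95% intervals from the standard error and the normal distribution. Ratios used 0.5 added counts, where both miRNAs had a median of at least 10 counts. miR-34a-5p to miR-34a-3p was below that minimum and was not tested. Alternatives used DESeq2 1.42.0 and limma 3.58.1. The pipeline was tested on simulated data. Replicates of a group differed by more than counting noise in all 36 pairs. The members, the related lists, the markers and the tests were chosen with earlier results of these data known. Named are the members, listed miRNAs that were called, the reference miR-30e-5p and the 3 miRNAs most correlated with miR-34a-5p and with miR-194-5p. The arm shares, and listed miRNAs given although not called, were chosen after values were seen. Some related miRNAs that had been listed for comparison are not reported here.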

Additional observations from a re-analysis of the deposited data

Results flagged for a closer look

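The change of miR-192-5p with shRELB differed between cultures by 1.30 on the log2 scale in the interaction test. Its log2 fold change was −1.69 in adherent cells and −0.39 in spheroids. Spheroid shRELA replicate 1 had a log2 ratio of miR-192-5p to miR-194-5p of −1.12, while the other 3 libraries of its group lay between −0.79 and −0.74. It was the 1 library that stood apart from its group by Dixon's criterion among 48 groups of 4 values examined, where chance alone gives about 1 in 20.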

How the results depend on the processing

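Of 22 called changes of members, 16 kept their call under each alternative of filter, scaling, test, block and samples and without each library in turn. With library totals in place of TMM, the number of members called was 0 for shRELA in spheroids, where miR-34a-5p had a log2 fold change of 0.99, and 0 for the RELB difference between cultures. With only the groups compared in the fit, 1 member was called for shRELA in adherent cells (miR-34a-3p), 6 in place of 4 for shRELB in adherent cells (miR-34a-3p and miR-34c-5p added) and 1 for shRELB in spheroids. At FDR below 0.05, 2 were called for shRELA in spheroids (miR-34a-3p added) and 5 for shRELB in adherent cells (miR-34c-5p added). That miR-34a-3p call rests on 15 counts over the spheroid shRELA libraries and 0 over those of spheroid shNeg. A looser threshold can only add calls, among all miRNAs as among members. The shares of all miRNAs called under these alternatives are not given. For spheroid against adherent shRELB the number was 4 with no filter on low counts, 0 with a mean of at least 10 CPM, which drops miR-34a-3p, 0 with the replicate number as a block, and 2 with FDR below 0.05, with no fold threshold or with only the groups compared. Leaving out 1 library gave 0 to 3 there, 1 to 2 for shRELA in spheroids and 0 to 1 for the RELB difference between cultures. Among members, directions turned only for changes that were not called. With library totals miR-192-5p and miR-194-5p were at −0.015 and −0.16 with shRELA in spheroids, and the RELB difference of miR-34a-5p was −0.23, or −0.064 with a mean of at least 10 CPM and −0.033 to 0.36 without single libraries, the lowest without spheroid shNeg replicate 1. The RELA difference of miR-215-5p was −0.22 with library totals, −0.16 with median-ratio factors or DESeq2, −0.10 with a mean of at least 10 CPM and −0.25 to 0.36 without single libraries. Without single libraries, the shRELA change in adherent cells was −0.22 to 0.10 for miR-192-5p and −0.24 to 0.16 for miR-194-5p, and that of miR-194-5p in spheroids −0.012 to 0.49. Where no cause is given, the cause was not tested. Replicate numbers were not seen to pair libraries: over 36 same-numbered pairs the correlation of deviations ran from −0.24 to 0.14. The block ended 2 calls, miR-215-5p with shRELB in spheroids (−1.43) and miR-34a-3p between cultures with shRELB (−3.07), and no other call of a member. Spheroid totals, the lowest 959141 counts, limit what can be said of miR-34a-3p, miR-34b and miR-34c.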
